A study of Mus musculus with 8 samples.

Results

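Iron handling in peritoneal macrophages was followed through 9 genes: Slc40a1, Cp, Tfrc, Trf, Fth1, Ftl1, Slc11a1, Slc48a1 and Blvrb. They were chosen by name for their roles in moving, storing or recycling iron, with earlier results of these data known. Their 14 probes, found by RefSeq accession among 55681 noncontrol probes, all passed the filter, and all 9 genes were among the 23131 features tested (21154 genes were named on the array). RNA was measured on 8 single-colour Agilent arrays, 2 in each of 4 groups. The Fra-1 knockout group was Fra-1lox/lox MxCre-/+ and thioglycollate elicited, and its reference, the Fra-1 control group, was wild-type Fra-1lox/lox and also thioglycollate elicited. The group labelled Fra-2 knockout was Fra-2lox/lox LysMCre-/+, and the Fra-2 control group was wild-type Fra-2lox/lox; neither carries a thioglycollate label. Mx Cre is switched on by interferon in many cell types, whereas LysM Cre acts in myeloid cells. All mice were 8 weeks old, of either sex, on a 129/C57Bl6 background, with littermates as controls, and the cells were those of a peritoneal lavage that stuck to plastic overnight. Mouse line, elicitation and Cre go together, so they cannot be told apart in any comparison of the Fra-1 line with the Fra-2 line. The labels do not say that the 2 arrays of a group came from separate mice, so p-values measure the spread between these samples, which may be technical.

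Macrophages take in iron in several ways. Transferrin (Trf) carries iron in blood, and its receptor (Tfrc) brings it into the cell; swallowed red cells and heme bring in far more in tissue macrophages. Heme leaves the phagosome through the heme carrier Slc48a1 and is opened by heme oxygenase (Hmox1), and biliverdin reductase B (Blvrb) acts on flavins and on products of heme breakdown. Iron is then stored in ferritin, a shell of heavy (Fth1) and light (Ftl1) chains, or leaves through ferroportin (Slc40a1), helped by ferroxidases such as ceruloplasmin (Cp). Slc11a1 pumps metal ions out of the phagosome, away from microbes. Fra-1 (Fosl1) and Fra-2 (Fosl2) are AP-1 transcription factors, which bind DNA as pairs with Jun proteins.

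RefSeq promoter windows of build GRCm38.p6, 250 bases before to 50 after a transcription start, were at hand for 6 of the 9 genes (10 windows). They were searched on both strands for the AP-1 site TGANTCA, the cAMP response element TGACGTCA, the core of the antioxidant response element TGACNNNGC and the E-box CACGTG. Of all 32851 windows of that length, 7.81% held the AP-1 site, 1.79% the cAMP response element, 12.4% the antioxidant core and 7.15% the E-box. In the 10 windows of these genes there was 1 match, an AP-1 site that begins at position −177 from the upstream start of Cp. The 250 bases before that start, chr3:19956804-19957053 on the plus strand, are shown with the site in capitals, since Cp had the widest range of values among the 9 genes. The 250 bases before the upstream start of Tfrc, chr16:32608646-32608895 on the plus strand, are shown as the promoter of the gene that moved the other way between the lines; they held none of the 4 motifs.
Cp: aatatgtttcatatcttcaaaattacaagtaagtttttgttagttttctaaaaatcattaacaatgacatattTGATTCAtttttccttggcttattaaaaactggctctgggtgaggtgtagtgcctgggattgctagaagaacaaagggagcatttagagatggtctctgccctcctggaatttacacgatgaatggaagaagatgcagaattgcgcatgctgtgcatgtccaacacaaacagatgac
Tfrc: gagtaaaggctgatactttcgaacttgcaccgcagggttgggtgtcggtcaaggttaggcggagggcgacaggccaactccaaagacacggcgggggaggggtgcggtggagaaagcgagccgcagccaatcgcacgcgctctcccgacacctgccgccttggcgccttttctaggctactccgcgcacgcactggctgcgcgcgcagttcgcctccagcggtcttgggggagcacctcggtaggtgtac
A match is a string of letters and says nothing of binding in these cells.

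Values are log2 ratios of a probe's background-subtracted signal to the 75th percentile on its array, so that 0 stands for that percentile, and values of different probes are not comparable with each other. Between 47.7% and 57.6% of spots were well above background per array, and the lowest such signal lay between −4.98 and −3.58 on this scale. A difference passed the test at an adjusted p under 0.05 (limma, Benjamini-Hochberg over all 23131 features). The targeted genes were read first. Fosl1 was −4.78 and −4.18 in Fra-1 knockout arrays, below background on both, and −2.73 and −1.97 in Fra-1 control arrays, above background on both (at least 3.91-fold lower, limma adjusted p = 0.354). Fosl2 was 6.43 and 7.14 on the arrays labelled Fra-2 knockout and 5.51 and 5.57 in Fra-2 control arrays, which is higher and not lower. A dimmer Fosl2 probe went the other way, with −3.96 and −3.82 on the arrays labelled Fra-2 knockout (1 of 2 above background) and −2.59 and −2.64 in Fra-2 control arrays. Where these probes lie relative to the deleted exons is not known here, so the Fosl2 label was not settled by its own probes, and directions given below for that deletion rest on the labels.

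None of the 9 genes passed the test for either deletion, whereas between the mouse lines Tfrc was higher and Cp and Trf were lower in the Fra-1 line, among controls and among knockouts. In the Fra-1 knockout against its controls 0 of 9 passed (limma; 0.013% of all features did), and 1 of 9 had an unadjusted p under 0.05 (8.87% of all features). In the Fra-2 knockout against its controls 0 of 9 passed (0.0% of all features), and again 1 of 9 had an unadjusted p under 0.05 (8.81%). Their median log2 difference was −0.21 in the Fra-1 comparison and −0.14 in the Fra-2 comparison, beside 0.03 and −0.03 over all features. Between controls of the lines 3 of 9 passed, beside 35.8% of all features, and between knockouts 4 of 9, beside 40.9%. Among controls 1 of 9 was higher (18.1% of all features) and 2 of 9 lower (17.7%) in the Fra-1 line, and among knockouts 2 of 9 were higher (22.2%) and 2 of 9 lower (18.7%), shares near those of the array as a whole. The median log2 difference of the 9 genes, Fra-1 line minus Fra-2 line, was 0.04 among controls and 0.13 among knockouts, beside −0.03 and 0.02 over all features. The Fra-1 effect minus the Fra-2 effect passed for 0 of 9 genes (0.00432% of all features), with 2 of 9 at an unadjusted p under 0.05 (9.58% of all features) and a median of −0.15, beside 0.05 over all features. The 2 arrays of one group did not overlap those of the other for 4 of 9 genes in the Fra-1 deletion comparison (46.6% of all features), 3 of 9 in the Fra-2 comparison (35.3%), 6 of 9 between controls (71.9%) and 6 of 9 between knockouts (75.2%); Fth1, one of the last 6, had 1 usable Fra-1 knockout array.

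**Figure D1:**
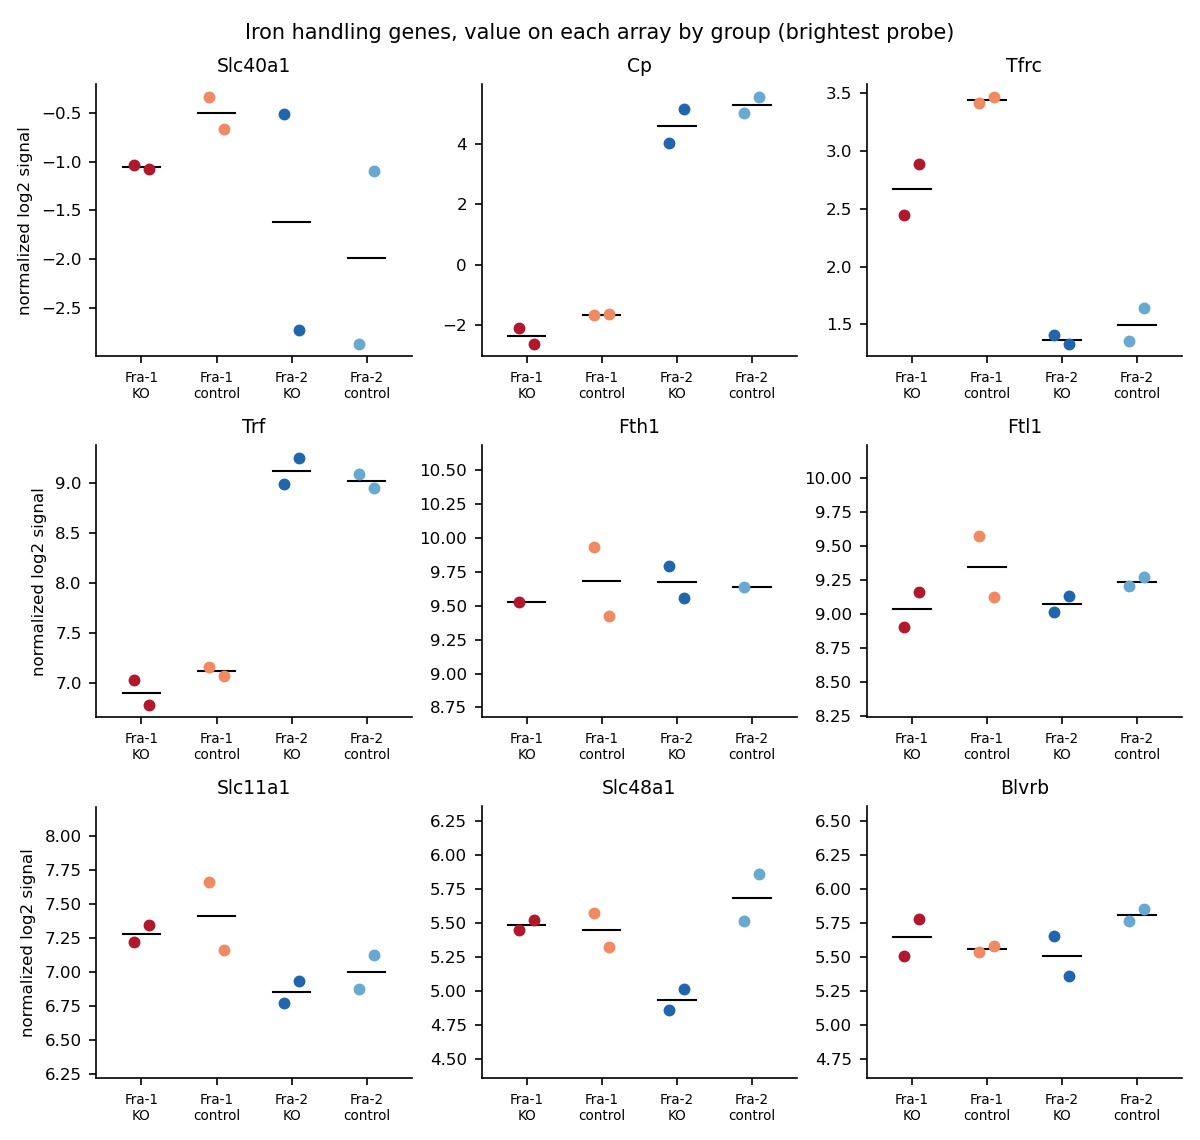
Normalized log2 signal (vertical axis, own range in each panel) of each gene's brightest probe on each array, with groups on the horizontal axis; points are arrays and bars are group means. Cp and Trf sit lower and Tfrc sits higher on the 4 Fra-1 line arrays, Slc40a1 is spread most within the Fra-2 line, and Fth1 has 1 usable array in the Fra-1 knockout and Fra-2 control groups.

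Iron export was represented by Slc40a1 and Cp. Slc40a1, the only known iron exporter of mammalian cells, differed more between arrays of one group than between groups in the Fra-2 line. It was −1.04 and −1.07 in Fra-1 knockout arrays and −0.33 and −0.67 in Fra-1 control arrays, so the Fra-1 knockout arrays were both the lower, by 0.55 on average (log2 difference −0.55, SE 0.83, limma adjusted p = 0.879). On the arrays labelled Fra-2 knockout it was −0.51 and −2.73, and in Fra-2 control arrays −2.87 and −1.10; the ranges of the groups overlapped, and the difference of 0.37 had a 95% interval of −1.68 to 2.41. The Fra-2 deletion difference had opposite signs on the slides, 2.36 within slide 1 and −1.63 within slide 2. Slc40a1 did not pass the test between controls of the lines (1.48, adjusted p = 0.216) or between knockouts (0.57, adjusted p = 0.616). The 95% interval of the Fra-1 deletion was −2.60 to 1.49. The fit pooled the spread of all 4 groups, so this width came mostly from the Fra-2 line. The SD of Slc40a1 was 0.02 in Fra-1 knockouts and 0.24 in Fra-1 controls. It was 1.57 on the arrays labelled Fra-2 knockout and 1.25 in Fra-2 controls. Changes inside these wide intervals were not detectable in this fit with 2 arrays a group. After the mean of each line was subtracted, the named genes whose values over the 8 arrays followed Slc40a1 most closely were Nek1 (r = 0.948), Tmem144 (0.939), Dennd2a (0.929), Pinx1 (0.929) and Gnpnat1 (0.928); these arrays share line and slide, the 5 were picked for this likeness, and r is a description.

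Ceruloplasmin had the largest difference between the lines among the 9 genes. Its brighter probe read −2.10 and −2.62 in Fra-1 knockout arrays and −1.67 and −1.63 in Fra-1 control arrays, all above background. On the arrays labelled Fra-2 knockout the same probe read 4.03 and 5.14, and in Fra-2 control arrays 5.00 and 5.55. Every Fra-1 line array was thus far below every Fra-2 line array. Cp was 122-fold lower in Fra-1 than in Fra-2 controls (log2 difference −6.93, SE 0.40, limma adjusted p = 2.33e-04) and 124-fold lower in Fra-1 than in Fra-2 knockouts (−6.95, SE 0.40, adjusted p = 1.96e-04). With the slide as a block these were −6.74 and −6.95, and within slides the knockout difference was −6.13 on slide 1 and −7.77 on slide 2. The dimmer Cp probe was below background on all 4 Fra-1 line arrays and on 1 array labelled Fra-2 knockout; it was at least 3.95-fold lower in Fra-1 than in Fra-2 controls (adjusted p = 0.0062 over all probes) and at least 2.45-fold lower between knockouts (adjusted p = 0.0062). The deletions themselves gave similar sizes that did not pass, −0.71 (95% interval −1.69 to 0.27, adjusted p = 0.656) for Fra-1 and −0.69 (−1.67 to 0.30, adjusted p = 0.721) for Fra-2.

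Iron uptake from blood was represented by the transferrin receptor and transferrin, which differed between the lines in opposite directions. Tfrc, brightest probe, read 2.45 and 2.89 in Fra-1 knockout arrays and 3.42 and 3.47 in Fra-1 control arrays. It read 1.41 and 1.33 on the arrays labelled Fra-2 knockout and 1.35 and 1.64 in Fra-2 control arrays. The order was therefore Fra-1 control, then Fra-1 knockout, then the Fra-2 groups, which overlapped each other. This probe is printed many times on each array (9 or 10 usable spots), and the SD between its spots, a technical spread within one array, was 0.03 to 0.09. Tfrc was 3.85-fold higher in Fra-1 than in Fra-2 controls (log2 difference 1.94, SE 0.19, limma adjusted p = 9.33e-04) and 2.46-fold higher between knockouts (1.30, SE 0.19, adjusted p = 0.0033). With the slide as a block these were 2.05 and 1.30, and within slides the knockout difference was 1.04 and 1.56.

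In the Fra-1 deletion Tfrc had the smallest p of the 9 genes and still missed the threshold. It averaged 2.67 ± 0.31 in Fra-1 knockout arrays and 3.44 ± 0.04 in Fra-1 control arrays (SD, n = 2 each), a log2 difference of −0.77 (95% interval −1.23 to −0.32, unadjusted p = 0.0059, limma adjusted p = 0.335). The other Tfrc probes gave −0.88 and −0.84, and on all 3 the Fra-1 knockout arrays lay below the Fra-1 control arrays. Within slide 1, the only slide with both groups, the difference was −0.995, and with the slide as a block it was −0.88 (adjusted p = 0.372). In the Fra-2 deletion the Tfrc difference was −0.13 (95% interval −0.58 to 0.33). The difference between these effects was −0.65 (SE 0.26, unadjusted p = 0.049, limma adjusted p = 0.519). Fibroblast markers moved beside Tfrc: 4 of 6 had an unadjusted p under 0.05 in the Fra-1 deletion, beside 8.87% of all features (median log2 difference −1.35, 0 of 6 passed). Their summed signal, in multiples of the array's 75th percentile, was 40.6 to 63.3 in Fra-1 knockout arrays and 109 to 157 in Fra-1 control arrays. Mesothelium markers summed to 2.01 to 2.42 in Fra-1 knockout arrays and 2.76 to 3.82 in Fra-1 control arrays, with 2 of 6 at an unadjusted p under 0.05. Mast-cell markers summed to 1.24 to 1.47 in Fra-1 knockout arrays and 2.12 to 2.52 in Fra-1 control arrays, with 0 of 5 at an unadjusted p under 0.05. Dividing-cell markers summed to 16.5 to 17.8 in Fra-1 knockout arrays and 17.0 to 22.4 in Fra-1 control arrays, with 0 of 6 at an unadjusted p under 0.05. Their part in the Tfrc difference was not tested.

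Transferrin itself, made mostly by liver but also by some macrophages, read 7.03 and 6.78 in Fra-1 knockout arrays and 7.16 and 7.07 in Fra-1 control arrays on its brighter probe. It read 8.99 and 9.25 on the arrays labelled Fra-2 knockout and 9.09 and 8.95 in Fra-2 control arrays. The lines were apart without overlap, whereas the deletions were small beside that gap. Trf was 3.74-fold lower in Fra-1 than in Fra-2 controls (log2 difference −1.90, SE 0.15, limma adjusted p = 5.68e-04) and 4.66-fold lower between knockouts (−2.22, SE 0.15, adjusted p = 3.30e-04). The other Trf probe gave wider gaps, −2.89 and −3.59 (adjusted p = 4.06e-04 and 1.98e-04 over all probes). The slide block moved the brighter probe's values to −1.92 and −2.22. The Fra-1 deletion difference was −0.21 (95% interval −0.59 to 0.17) and that of the Fra-2 deletion 0.10 (−0.28 to 0.48), and neither passed.

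**Figure D2:**
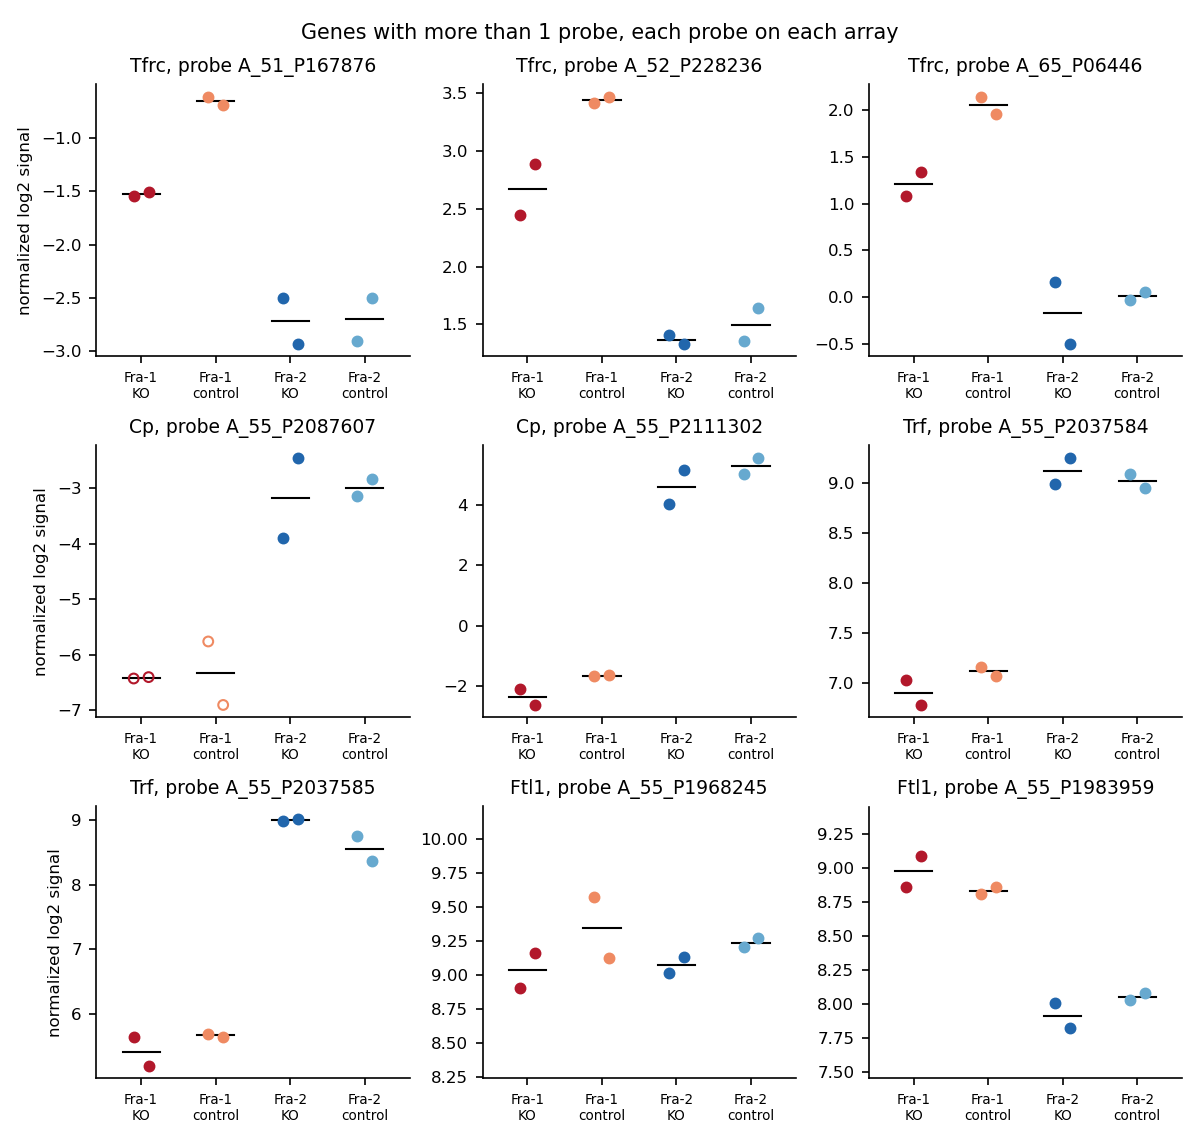
Normalized log2 signal (vertical axis, own range in each panel) on each array for every probe of Tfrc, Cp, Trf and Ftl1, by group; bars are group means, and open points mark groups with neither array above background. The 3 Tfrc probes order the groups alike and both Cp and both Trf probes are lower in the Fra-1 line, whereas only 1 of the 2 Ftl1 probes separates the lines.

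The ferritin chains, which hold stored iron, passed the test for neither deletion. Fth1 read 9.52 on the usable Fra-1 knockout array and 9.93 and 9.43 in Fra-1 control arrays; it read 9.79 and 9.56 on the arrays labelled Fra-2 knockout and 9.64 on the usable Fra-2 control array. Its spot was flagged as an outlier on the other Fra-1 knockout and Fra-2 control arrays and left out there, so those groups rest on 1 array each. Kept, these spots read 8.99 and 9.24. No Fth1 comparison passed the test, with log2 differences of −0.15 for the Fra-1 deletion, 0.04 for the Fra-2 deletion, 0.04 between controls and −0.15 between knockouts. The 95% interval of the Fra-1 deletion was −0.95 to 0.64 and that of the Fra-2 deletion −0.76 to 0.83.

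Ftl1 gave different answers on its probes. The brighter read 8.91 and 9.16 in Fra-1 knockout arrays, 9.57 and 9.13 in Fra-1 control arrays, 9.02 and 9.13 on the arrays labelled Fra-2 knockout and 9.20 and 9.27 in Fra-2 control arrays, and passed in no comparison. The other read 8.86 and 9.08 in Fra-1 knockout arrays, 8.81 and 8.86 in Fra-1 control arrays, 8.01 and 7.82 on the arrays labelled Fra-2 knockout and 8.03 and 8.08 in Fra-2 control arrays. On that probe the lines were apart, by 0.78 among controls (adjusted p = 0.0080 over all probes) and 1.06 among knockouts (adjusted p = 0.0024). Ferritin genes have many near-identical processed copies in the mouse genome, so what each probe reads is uncertain, and a line difference in Ftl1 is uncertain with it. Neither probe passed in a deletion comparison; the brighter gave −0.32 for Fra-1 and −0.17 for Fra-2.

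Among the genes of the phagosome and heme route, Slc48a1 had the smallest p in the Fra-2 deletion. Slc48a1 read 5.45 and 5.53 in Fra-1 knockout arrays, 5.57 and 5.33 in Fra-1 control arrays, 4.86 and 5.01 on the arrays labelled Fra-2 knockout and 5.52 and 5.86 in Fra-2 control arrays. The arrays labelled Fra-2 knockout were the lowest of all 8. The Fra-2 deletion difference was −0.75 (95% interval −1.16 to −0.34, unadjusted p = 0.0042, limma adjusted p = 0.263), −0.66 within slide 1 and −0.84 within slide 2. The Fra-1 deletion difference was 0.04 (−0.37 to 0.45), and the Fra-1 effect minus the Fra-2 effect was 0.79 (unadjusted p = 0.016, adjusted p = 0.397). Between knockouts Slc48a1 was 1.47-fold higher in the Fra-1 line (0.55, SE 0.17, adjusted p = 0.043), and among controls it was −0.24 (adjusted p = 0.315). The call between knockouts was lost on leaving out any 1 array of the knockouts compared or of the Fra-1 controls (adjusted p 0.051 to 0.171) and with no filter on dim probes (adjusted p = 0.102).

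Slc11a1, expressed by phagocytes and known for resistance to microbes inside them, read 7.22 and 7.34 in Fra-1 knockout arrays, 7.66 and 7.16 in Fra-1 control arrays, 6.77 and 6.93 on the arrays labelled Fra-2 knockout and 6.87 and 7.12 in Fra-2 control arrays. All 4 Fra-1 line arrays lay above all 4 Fra-2 line arrays, by 0.41 among controls (limma adjusted p = 0.159) and 0.43 among knockouts (adjusted p = 0.137), which did not pass. With quantile normalization both passed (0.51, adjusted p = 0.026, and 0.49, adjusted p = 0.027), and with normexp background correction the knockout difference did (0.50, adjusted p = 0.049). The deletions gave −0.13 (95% interval −0.62 to 0.36) for Fra-1 and −0.14 (−0.63 to 0.35) for Fra-2.

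Blvrb read 5.51 and 5.78 in Fra-1 knockout arrays, 5.54 and 5.58 in Fra-1 control arrays, 5.66 and 5.37 on the arrays labelled Fra-2 knockout and 5.76 and 5.85 in Fra-2 control arrays. All 8 arrays lay close together, and no comparison passed. The deletion differences were 0.09 (95% interval −0.30 to 0.47) for Fra-1 and −0.30 (−0.68 to 0.09) for Fra-2, and the line differences −0.25 (adjusted p = 0.267) among controls and 0.13 (adjusted p = 0.528) among knockouts. Hmox1, the enzyme that opens heme, read 6.37 and 6.28 in Fra-1 knockout arrays, 6.29 and 6.22 in Fra-1 control arrays, 5.83 and 6.07 on the arrays labelled Fra-2 knockout and 6.37 and 6.86 in Fra-2 control arrays. As for Slc48a1, the arrays labelled Fra-2 knockout were the lowest, and the difference from Fra-2 controls did not pass (−0.67, unadjusted p = 0.013, limma adjusted p = 0.377). Sums of 4 marker lists lay apart in the same comparison. Markers of monocyte-derived macrophages with a usable spot on every array (4 of 6 listed) summed to 12.9 to 17.4 times the array's 75th percentile on the arrays labelled Fra-2 knockout and 24.5 to 76.3 in Fra-2 control arrays. Neutrophil markers summed to 30.7 to 33.3 on the arrays labelled Fra-2 knockout and 15.7 to 22.1 in Fra-2 control arrays, and markers of large resident peritoneal macrophages to 202 to 306 on the arrays labelled Fra-2 knockout and 130 to 192 in Fra-2 control arrays. Macrophage markers summed to 1084 to 1148 on the arrays labelled Fra-2 knockout and 1178 to 1324 in Fra-2 control arrays. None of the tested markers of these lists passed (limma). An unadjusted p under 0.05 was found for 0 of 4 monocyte-derived, 1 of 4 neutrophil, 1 of 8 large resident and 0 of 8 macrophage markers. The share over all features was 8.81%. Their part in the Slc48a1 and Hmox1 differences was not tested.

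**Figure D3:**
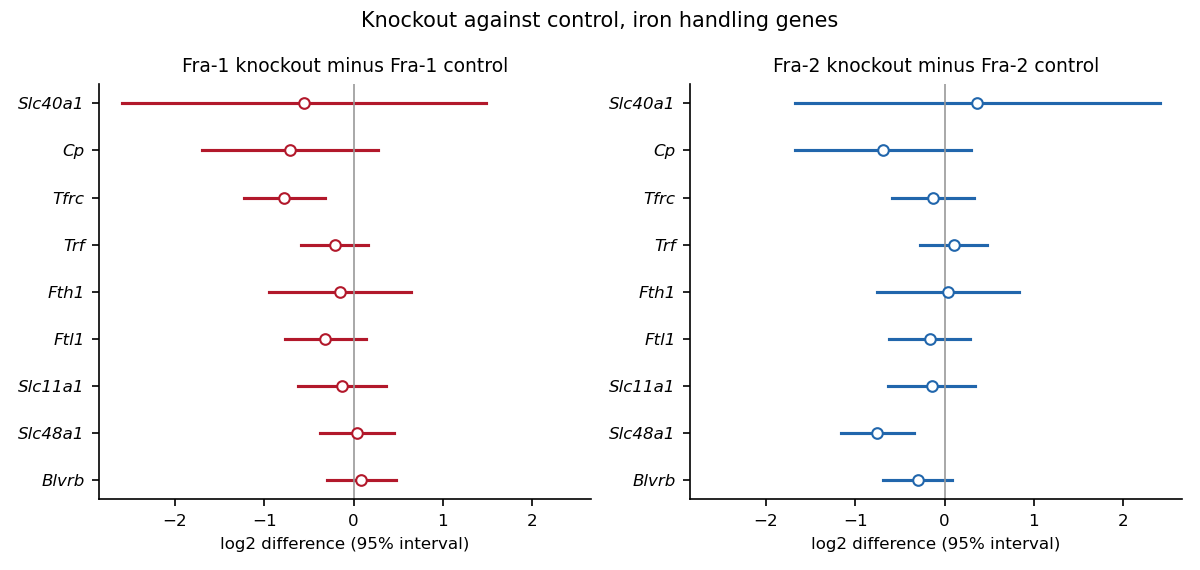
Log2 difference (horizontal axis) of each gene for the Fra-1 deletion at left and the Fra-2 deletion at right, with 95% intervals as lines; open points did not pass the test. Tfrc at −0.77 in the Fra-1 deletion and Slc48a1 at −0.75 in the Fra-2 deletion are the genes whose intervals leave out 0 before adjustment.

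**Figure D4:**
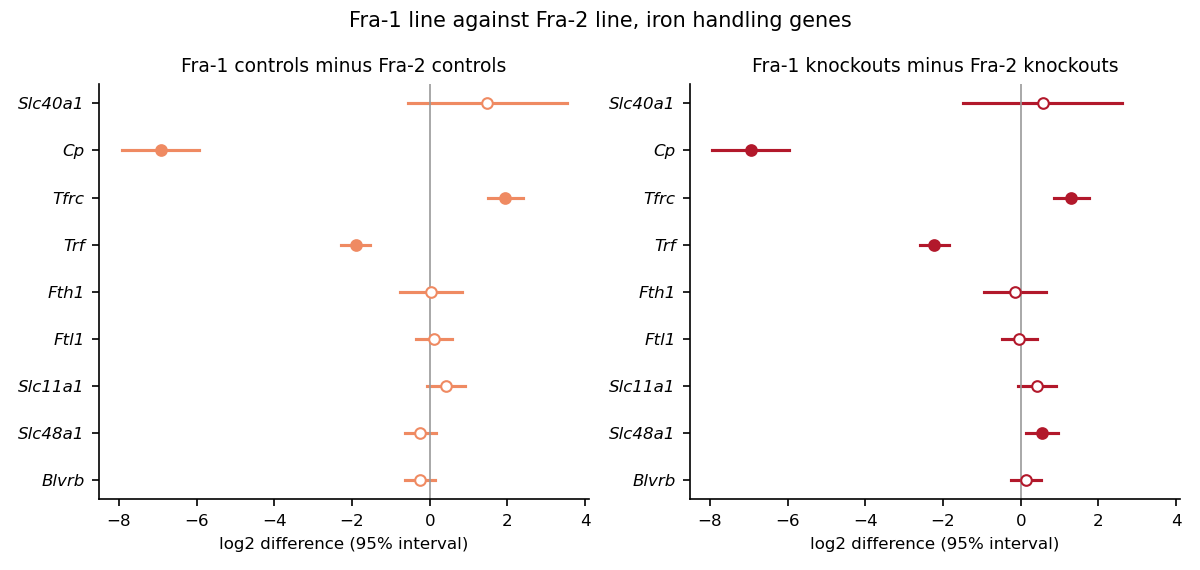
Log2 difference (horizontal axis), Fra-1 line minus Fra-2 line, of each gene among controls at left and knockouts at right, with 95% intervals as lines; filled points passed the test and open points did not. Cp lies near −7 and Trf near −2 in both panels, Tfrc lies above 0 in both, and Slc48a1 passed among knockouts.

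Other genes of iron and heme handling were read from a list of 50, of which 45 were tested. As for the 9 genes, none passed for either deletion (limma; 0 of 45 in each), with 2 of 45 at an unadjusted p under 0.05 for Fra-1 (8.87% of all features) and 8 of 45 for Fra-2 (8.81% of all features). The smallest p values in the Fra-1 deletion belonged to Bmp6, a signal that raises hepcidin in liver (limma adjusted p = 0.435), and Heph, a ferroxidase (log2 difference −1.24, adjusted p = 0.527, 1 of 2 Fra-1 knockout arrays above background). Bmp6 was below background on both Fra-1 knockout arrays and above it on 1 of 2 Fra-1 control arrays, so the size of its difference was not measured. In the Fra-2 deletion they belonged to Tfr2, a receptor that senses transferrin (adjusted p = 0.139, below background in both groups), and Tmprss6, a protease that lowers hepcidin in liver (adjusted p = 0.263). Tmprss6 was below background on both arrays labelled Fra-2 knockout and at least 1.09-fold lower there than in Fra-2 control arrays. For the difference between the deletions 9 of 45 had an unadjusted p under 0.05 (9.58% of all features) and 0 passed, with the smallest p for Bmp6 (limma adjusted p = 0.270) and Tmprss6 (adjusted p = 0.341). Sizes are not given for these, since Bmp6 was below background on both Fra-1 knockout arrays and Tmprss6 on all 4 Fra-1 line arrays and both arrays labelled Fra-2 knockout. Hamp, which encodes hepcidin, the hormone that removes ferroportin from the cell surface, was below background on all 8 arrays and was not tested.

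Between the lines, 27 of the 45 passed among controls (35.8% of all features did), 17 higher (18.1%) and 10 lower (17.7%) in Fra-1 controls. Among knockouts 28 passed (40.9%), 16 higher (22.2%) and 12 lower (18.7%) in Fra-1 knockouts. Of 12 genes of iron uptake and reduction, 8 were higher and 1 was lower in Fra-1 controls, and 7 were higher and 3 lower in Fra-1 knockouts. Steap1, Steap2, Steap4, Ltf and Tfr2 passed the filter only through Fra-1 line groups, where they were high. The counts of higher genes therefore follow in part from the filter. Steap1 and the ferrireductase Steap2, which turns ferric into ferrous iron, were higher in the Fra-1 line in both comparisons. Steap1 read 1.26 and 1.96 in Fra-1 control arrays and −5.89 and −3.43 in Fra-2 control arrays (1 of 2 above background), a log2 difference of 6.27 (limma adjusted p = 0.0021). Over alternative settings that difference ran from 3.93 to 7.50. Between knockouts Steap1 was 3.57 log2 units higher (limma adjusted p = 0.013) and passed in 16 of 18 alternative settings. Steap2 was below background in Fra-2 controls and at least 16.2-fold higher in Fra-1 controls (adjusted p = 0.0022), and Steap4 at least 5.60-fold higher (adjusted p = 0.0048). Steap2 was also below background on the arrays labelled Fra-2 knockout and at least 3.70-fold higher in Fra-1 knockouts (adjusted p = 0.0073). Steap3, the ferrireductase of the endosome, was 2.84 log2 units higher in Fra-1 than in Fra-2 knockouts (adjusted p = 0.0023) on its brighter probe. Its dimmer probe gave a smaller gap in the same direction, averaging 2.44 in Fra-1 knockout arrays and 0.86 on the arrays labelled Fra-2 knockout. Ltf, an iron-binding protein of neutrophil granules and secretions, was 3.32 log2 units higher in the same comparison (adjusted p = 0.0092), with 1 of 2 arrays labelled Fra-2 knockout above background; without Fra-1 knockout array 1 its adjusted p was 0.055. Over alternative settings the Ltf difference ran from 1.35 to 4.32. Slc22a17, a receptor for the iron carrier lipocalin, went the other way, with a log2 difference of −4.70 among controls (adjusted p = 1.10e-04) and −5.15 among knockouts (adjusted p = 6.17e-05). The other two that were lower among knockouts, named after their values were seen, were Lcn2, a lipocalin that binds iron carriers (−4.17, adjusted p = 0.0031), and the ferric reductase Cybrd1. Cybrd1 was below background on both Fra-1 knockout arrays and at least 2.50-fold lower there (adjusted p = 0.047), with 1 of 2 arrays labelled Fra-2 knockout above background.

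Hp and Cd163, which clear free hemoglobin, were lower in the Fra-1 line. Haptoglobin (Hp), which binds free hemoglobin, read 3.49 and 3.65 in Fra-1 control arrays and 9.02 and 9.15 in Fra-2 control arrays, a log2 difference of −5.52 (limma adjusted p = 4.54e-04), and was −5.35 between knockouts (adjusted p = 4.50e-04). Cd163, the macrophage receptor for that complex, was below background on all Fra-1 line arrays and at least 55.6-fold lower in Fra-1 than in Fra-2 controls (adjusted p = 1.43e-04), and at least 15.8-fold lower between knockouts (adjusted p = 2.15e-04). Of the 15 genes of heme uptake, breakdown and control, 5 were higher (18.1% of all features) and 3 lower (17.7%) in Fra-1 controls. Cd163 passed the filter only through the Fra-2 groups. Of the hepcidin system and ferroxidases, 5 of 9 listed genes were tested and all 5 passed among controls, 2 higher (18.1% of all features) and 3 lower (17.7%). Heph and Hamp2 passed the filter only through Fra-1 controls, Tmprss6 only through Fra-2 controls and Bmp6 only through the Fra-2 groups. These genes were thus tested because they were high on 1 side, so nothing is read from that count. Heph was at least 4.19-fold higher (adjusted p = 0.0022). Bmp6 was lower (log2 difference −3.39, adjusted p = 0.0029, 1 of 2 Fra-1 control arrays above background), and between knockouts it was at least 24.5-fold lower (adjusted p = 3.65e-04). Of 6 tested genes of storage and iron regulatory proteins, 1 was higher (18.1% of all features) and 2 lower (17.7%) in Fra-1 controls. Of 7 mitochondrial iron genes 1 was higher and 1 lower, near the same shares of all features.

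**Figure D5:**
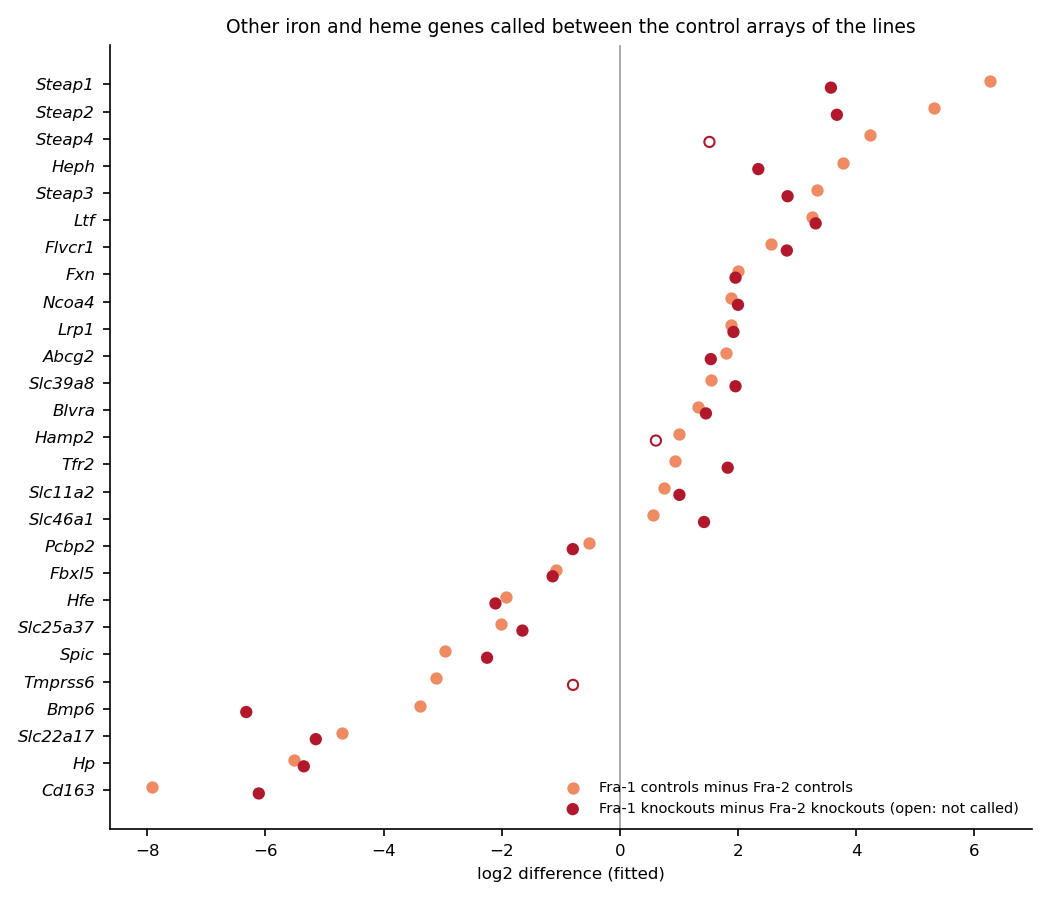
Fitted log2 difference (horizontal axis), Fra-1 line minus Fra-2 line, among controls and among knockouts for the 27 further iron and heme genes that passed among controls; open points did not pass among knockouts. Steap1 and Steap2 lie at the high end and Cd163, Hp and Slc22a17 at the low end; values of genes below background in a group are fitted and not bounds.

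Markers of the cells on the plate differed between the lines beside these genes. The 7 macrophage markers with a usable spot on every array were above background in every group. They summed to 889 to 967 in Fra-1 knockout arrays, 923 to 1166 in Fra-1 control arrays, 1084 to 1148 on the arrays labelled Fra-2 knockout and 1178 to 1324 in Fra-2 control arrays. Of the 8 macrophage markers tested, 1 was higher and 4 were lower in Fra-1 controls (median log2 difference −0.78). Over all features 18.1% were higher and 17.7% lower in Fra-1 controls, and the marker counts below stand beside these shares. Markers of large resident peritoneal macrophages summed to 18.3 to 18.5 in Fra-1 control arrays and 130 to 192 in Fra-2 control arrays, with 6 of 8 lower in Fra-1 controls and Timd4 below background there. Markers of B cells (4 of 4), T cells (3 of 3) and mast cells (5 of 5) were lower in Fra-1 controls, and B-cell markers summed to 1.38 to 3.29 there and 38.0 to 80.1 in Fra-2 control arrays. Markers of fibroblasts (6 of 6) and mesothelium (6 of 6) were higher in Fra-1 controls. Fibroblast markers summed to 109 to 157 there and 1.37 to 3.22 in Fra-2 control arrays, where Lum and Pdgfra were below background on both. Dividing-cell markers were mixed. In Fra-1 controls 5 of 6 were higher, and the remaining marker went the other way without passing (log2 difference −1.35). Among knockouts 5 of 6 were higher and 1 was lower in the Fra-1 line. Summed dividing-cell markers did not separate the controls: the range in Fra-1 control arrays, 17.0 to 22.4, lay inside that of Fra-2 control arrays. Of 4 tested markers of monocyte-derived macrophages 2 were lower in Fra-1 controls, of 4 tested neutrophil markers 1 was higher and 1 lower, and the 1 eosinophil marker tested was higher. In such bulk RNA, fewer cells of a type and less RNA per cell cannot be told apart, and the part of these cells in the line differences of Cp, Trf, Tfrc and the other genes was not tested.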

How the data were processed

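Deposited Agilent scanner files of 8 one-colour Cy3 arrays, extracted with Feature Extraction 11.5.1.1 per the file headers, gave background-subtracted signal intensities on a linear scale and 0 or 1 flags as other columns, per the file headers. The log2 values of the deposited matrix, which matched 75th-percentile scaling with probe medians set to 0, served as an alternative source. Control spots and outlier-flagged spots (191 to 317 per array) were left out, spots of a probe averaged, and log2 of each array's 75th percentile over noncontrol probes subtracted. Probes had to be well above background on every usable array of at least 1 group (31178 did), and a gene's brightest probe stood for it. Names came by accession through a RefSeq table of GRCm38.p6, which named 28026 probes; the array headers give mm9, and no coordinates were moved between builds. Limma 3.58.1 (R 4.3.3) fitted 4 group means to 8 arrays, after a check on simulated data. Python 3.11.15, pandas 2.3.3, numpy 2.4.6 and matplotlib 3.10.9 made tables and figures. SE is the moderated standard error, and a bound on a fold sets the bright group against the detection level of the dim arrays; the number of arrays limits precision. The members, lists and rules were chosen with earlier results of these data known. Named besides the 9 genes were Fosl1, Fosl2, Hmox1, Hamp, in each comparison up to 4 of the other iron genes with the largest passing differences in each direction or the 2 with the smallest p, and the 5 genes most like Slc40a1. Alternatives were quantile normalization, normexp background correction (offset 50, on median raw signals), the series matrix values, all probes unfiltered, probes above background on all 8 arrays, averaging a gene's probes, 1 shared floor set by the array with the highest detection level, the slide as a block and within slides, only the groups compared, a trended prior, a log2 difference of at least 1, leaving out each array and, added after the data were seen, keeping outlier spots. The slide-as-a-block fit used probes with no missing array and so gave no value for Fth1. Slide 1 held 5 arrays and slide 2 held 3; Fra-1 controls were on slide 1 only. Sums of marker levels hold only genes with a usable spot on all 8 arrays. The result of 1 marker list is not reported here.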

Additional observations from a re-analysis of the deposited data

How the results depend on the processing

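No gene of the 9 passed the test for either deletion, or for their difference, under any alternative run, and Tfrc, Cp and Trf passed between controls and between knockouts under each. The labels give the groups no shared replicate numbers, so the slide was the only block fitted. Over all features, the Fra-1 deletion gave 3 calls, but 26 with quantile normalization, 27 with the common floor, 1 with normexp, 1 with only the groups compared, 0 with no filter, with the filter on all arrays, with the slide as a block and with the trended prior, and 0 to 18 on leaving out an array. The Fra-2 deletion gave 0, but 14 with quantile normalization, 9 with normexp, 7 with the common floor, 3 with the filter on all arrays, 2 with the mean of probes, 53 with the trended prior and 0 to 46 on leaving out an array. Their difference gave 1, but 10 with quantile normalization, 2 with normexp and with the common floor, 0 with no filter, the filter on all arrays, the slide as a block and the trended prior, and 0 to 30 on leaving out an array. A log2 difference of at least 1 left 5011 calls between controls and 5441 between knockouts, and leaving out an array gave 5421 to 8989 between knockouts.

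The median of the 9 genes was 0.18 between controls with quantile normalization; between knockouts it was 0.36 with quantile normalization, 0.43 with the mean of probes and 0.28 with the slide as a block, a median of 8 genes because that fit gave no value for Fth1; for the difference of deletions it was −0.011 with quantile normalization and 0.014 with the mean of probes. On leaving out an array it ran from −0.41 to −0.093 in the Fra-1 deletion, −0.31 to −0.019 in the Fra-2 deletion, −0.21 to 0.29 between controls, −0.011 to 0.38 between knockouts and −0.36 to 0.063 for the difference of deletions.

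Some differences that had not passed changed sign. Not all were small: Fosl2 was 1.24 in the Fra-2 deletion on its brighter probe. With quantile normalization Fth1 was 0.17 in the Fra-1 deletion, 0.36 between knockouts and 0.16 for the difference of deletions, Ftl1 was 0.17 between knockouts, and Slc11a1 −0.023 for the difference of deletions. With normexp Hmox1 was −0.023 in the Fra-1 deletion, Tfr2 0.038 in the Fra-2 deletion and Cp 0.45 for the difference of deletions. With the slide as a block, in the Fra-1 deletion, Slc48a1 was −0.058 and Hmox1 −0.039, and Slc11a1 was −0.075 for the difference of deletions. With the mean of probes Fosl2 was −0.016 in the Fra-2 deletion, Ftl1 0.51 between knockouts (adjusted p = 0.030), and Ftl1 0.065 and Cp 0.043 for the difference of deletions. On leaving out an array, values in the Fra-1 deletion ran from −0.41 to 0.10 for Fth1, −0.38 to 0.12 for Slc11a1, −0.052 to 0.22 for Blvrb and −0.086 to 0.16 for Slc48a1. In the Fra-2 deletion they ran from −0.75 to 1.48 for Slc40a1, −0.27 to 0.015 for Tfrc, −0.078 to 0.15 for Fth1, −0.029 to 0.23 for Trf and −0.089 to 1.36 for Fosl1. Between controls they ran from −0.21 to 0.29 for Fth1 and −0.11 to 0.33 for Ftl1. Between knockouts they ran from −0.55 to 1.68 for Slc40a1, −0.16 to 0.088 for Ftl1 and −0.011 to 0.28 for Blvrb. For the difference of deletions they ran from −2.03 to 0.19 for Slc40a1, −0.44 to 0.063 for Fth1, −0.37 to 0.074 for Ftl1, −0.23 to 0.26 for Slc11a1 and −0.58 to 0.53 for Cp. The causes were not tested.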
